A study of Mus musculus with 8 samples.

Results

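Retsat, Rasgrf1, Egfem1, Fgf14 and Gm9925 are 5 of the 32285 genes counted in single nuclei of the mouse striatum, and they were chosen by the size of their strain differences in astrocytes, which were among the strongest measured. The choice used the astrocyte counts themselves. Ranked among the 8207 genes tested in astrocytes by the F statistic of the strain term in edgeR, a count model, Retsat stood at place 6, Egfem1 at 8, Fgf14 at 9, Rasgrf1 at 11 and Gm9925 at 13. The astrocyte values of these genes are therefore given as a description with no test, and tests are kept to the other clusters of nuclei.

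The nuclei came from mice aged 12 weeks of 8 inbred strains: A/J, C57BL/6, 129S1/SvImJ, NOD/ShiLtJ, NZO/HlLtJ, and CAST/EiJ, PWK/PhJ and WSB/EiJ, which derive from wild mice. Each of 4 batches pooled the striata of 8 mice, 1 of every strain and equally many males and females, so that every strain had 4 mice and the study 32. RNA and accessible chromatin were read from the same nuclei, and the authors assigned each nucleus to a strain from the genotypes in its reads. The groups are the strains, no treatment is named for any of them, and the sex of single mice was not used here. The C57BL/6 substrain is written differently in the design text and in the table of nuclei, so the strain is called C57BL/6 here.

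Mice of an inbred strain share 1 fixed genotype, so a strain difference is read against the spread among mice of the same strain. In the tests, batch was allowed for and all strains shared 1 estimate of that spread. Astrocytes are the glia that take up glutamate and potassium around synapses, and the cluster holds nuclei with their defining transcripts. The members have unlike roles. Retsat encodes retinol saturase, an oxidoreductase of vitamin A metabolism. Rasgrf1 encodes a calcium-responsive guanine nucleotide exchange factor that activates Ras, and in mouse brain it is an imprinted gene expressed from the paternal copy. Egfem1 encodes a protein with EGF-like and EMI domains. Fgf14 encodes an FGF homologous factor, which stays inside the cell and binds voltage-gated sodium channels. Gm9925 is annotated as a long noncoding RNA and is known by its locus name alone.

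On GRCm38, the members lie on 5 chromosomes: Retsat at chr6:72598602-72607488, Rasgrf1 at chr9:89909508-90026979, Egfem1 at chr3:29081653-29691058 and Fgf14 at chr14:123974441-124677686, with Gm9925 on another. Of the 291715 accessible regions in the deposited index, each 999 bases long, 4 overlapped Retsat, 16 Rasgrf1, 58 Egfem1, 147 Fgf14 and 1 Gm9925. The index pools all nuclei and gives positions only, so it holds no strain or cluster. The promoter windows examined ran from 250 bases before to 50 after a RefSeq start. Those of Retsat, Rasgrf1, Egfem1 and Fgf14 each overlapped 1 listed region, as did 53.1% of all 32851 promoter windows. The windows of Rasgrf1 and Fgf14 lay inside the gene spans given above, and the outer ends of those spans were not covered. The promoters of the 2 genes whose astrocyte level separated a few strains most sharply are shown, Retsat at chr6:72598352-72598651 and Rasgrf1 at chr9:89909525-89909824, both on the forward strand of GRCm38.p6 as given by RefSeq; capitals mark letters that match GGGCGG or one of the motifs CCAAT and TATAAA, with a match on the reverse strand shown by its complement.

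Retsat: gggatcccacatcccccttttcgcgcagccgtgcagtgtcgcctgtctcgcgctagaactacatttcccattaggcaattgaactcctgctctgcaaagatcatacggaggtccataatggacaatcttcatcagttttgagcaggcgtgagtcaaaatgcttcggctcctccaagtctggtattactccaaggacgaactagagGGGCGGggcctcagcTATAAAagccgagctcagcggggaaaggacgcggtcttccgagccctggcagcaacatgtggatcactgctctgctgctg

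Rasgrf1: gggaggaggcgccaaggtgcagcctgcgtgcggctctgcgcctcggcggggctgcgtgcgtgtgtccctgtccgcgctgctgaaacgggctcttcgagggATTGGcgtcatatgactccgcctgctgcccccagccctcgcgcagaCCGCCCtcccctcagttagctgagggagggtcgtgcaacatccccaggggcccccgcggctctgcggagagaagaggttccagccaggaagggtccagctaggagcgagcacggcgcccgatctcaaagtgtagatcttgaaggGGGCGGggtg

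The Retsat window held 1 GGGCGG and 1 TATAAA, and the Rasgrf1 window held 2 GGGCGG and 1 CCAAT. Over all promoter windows of that length and both strands, 35.7% held GGGCGG, 37.4% CCAAT and 13.6% TATAAA. These are matches of letters in the reference genome, and the letters the 8 strains carry there were not examined.

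The astrocyte cluster held 4748 of the 55672 annotated nuclei (8.53%), with 23 to 434 nuclei and 38252 to 1085998 counts per mouse; the smallest library was that of the CAST/EiJ mouse of batch 3. All 9 astrocyte markers examined were present in every strain, and their summed level was 11538 CPM (counts scaled to 1000000 per library) in PWK/PhJ, the lowest strain, and 13480 CPM in CAST/EiJ, the highest. RNA of neurons was present too: 6 projection neuron markers stood in the astrocyte cluster at 5.51% to 82.6% of their level in Drd1+ neurons (median 30.7%). Their sum was lowest in PWK/PhJ, at 946 CPM, and highest in 129S1/SvImJ, at 1333 CPM. Across batches, 1517 of the 54141 barcode sequences of annotated nuclei occurred in more than 1 batch, and nuclei were kept apart by batch. The annotation gave 18 clusters, of which 9 had at least 3 mice of every strain with at least 10 nuclei and were tested.

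Across the clusters, the members fell into 2 patterns of level. Retsat and Gm9925 were highest in astrocytes. Pooled over all mice, Retsat stood at 101.9 CPM in astrocytes (95% Poisson interval 96.1 to 108, counting error only), followed by ependyma at 30.0, macrophages at 21.6, endothelium at 21.1, fibroblasts at 15.8 (4 counts), Unknown_2 at 14.8 (3 counts) and oligodendrocytes at 12.8 CPM. The other 11 clusters had 1.31 to 11.4 CPM, Drd1+ neurons among them at 4.89. The intervals of ependyma, macrophages and endothelium overlapped. The pooled astrocyte level of Retsat mixes CAST/EiJ, PWK/PhJ and NOD/ShiLtJ, with means of 233 to 338 CPM, and strains with means of 34.0 to 45.6 (scaled as given below). Macrophages stood at 9.64% to 16.2% of the astrocyte level in the former and at 29.3% to 71.2% in the latter. Gm9925 stood at 117 CPM in astrocytes, 41.7 in ependyma, 34.6 in the small cluster Unknown_2, 16.8 in Drd1+ and 15.2 in Drd2+ neurons, and 12.2 or less in the other 13 clusters. The lowest was oligodendrocytes at 0.518 CPM, where 11 counts were found in all. The intervals of ependyma and Unknown_2 overlapped.

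Pooled over all mice, Rasgrf1, Egfem1 and Fgf14 were higher in Drd1+ and Drd2+ neurons than in astrocytes; for Rasgrf1 this did not hold in PWK/PhJ, whose astrocyte level exceeded that in both neuron clusters. Rasgrf1 was at 311 CPM in Nxph1+ interneurons, 302 in the second Slc17a7+ cluster, 246 in Chat+ interneurons and 225 in Drd1+ neurons, against 48.7 in astrocytes, 25.8 in macrophages and 15.3 in oligodendrocytes. The first and second of these overlapped in their intervals. Egfem1 was at 928 CPM in the second Drd1+ cluster, 697 in Drd1+ and 543 in Drd2+ neurons, 148 in astrocytes and 7.34 in oligodendrocytes. Fgf14 reached 6107 CPM in Drd1+ neurons, with Drd2+ neurons at 5655, against 552 in astrocytes, 75.5 in macrophages and 43.8 in oligodendrocytes. The pooled astrocyte level was 21.3% of that in Drd1+ neurons for Egfem1 and 9.03% for Fgf14, inside the range of the 6 projection neuron markers. These pooled values mix strains. The mean ratio within mice ran from 0.0452 in WSB/EiJ to 0.427 in 129S1/SvImJ for Egfem1. For Fgf14 it ran from 0.0381 in NOD/ShiLtJ to 0.156 in 129S1/SvImJ. Egfem1 in WSB/EiJ and NOD/ShiLtJ, and Fgf14 in NOD/ShiLtJ, CAST/EiJ, NZO/HlLtJ and WSB/EiJ, fell below the lowest marker, pooled at 5.51%. For Rasgrf1 the pooled 21.6% mixes PWK/PhJ, where astrocytes were above Drd1+ neurons, with 7 strains in which the mean ratio was 0.0784 to 0.150, so its place among the glial clusters differs by strain.

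**Figure D1:**
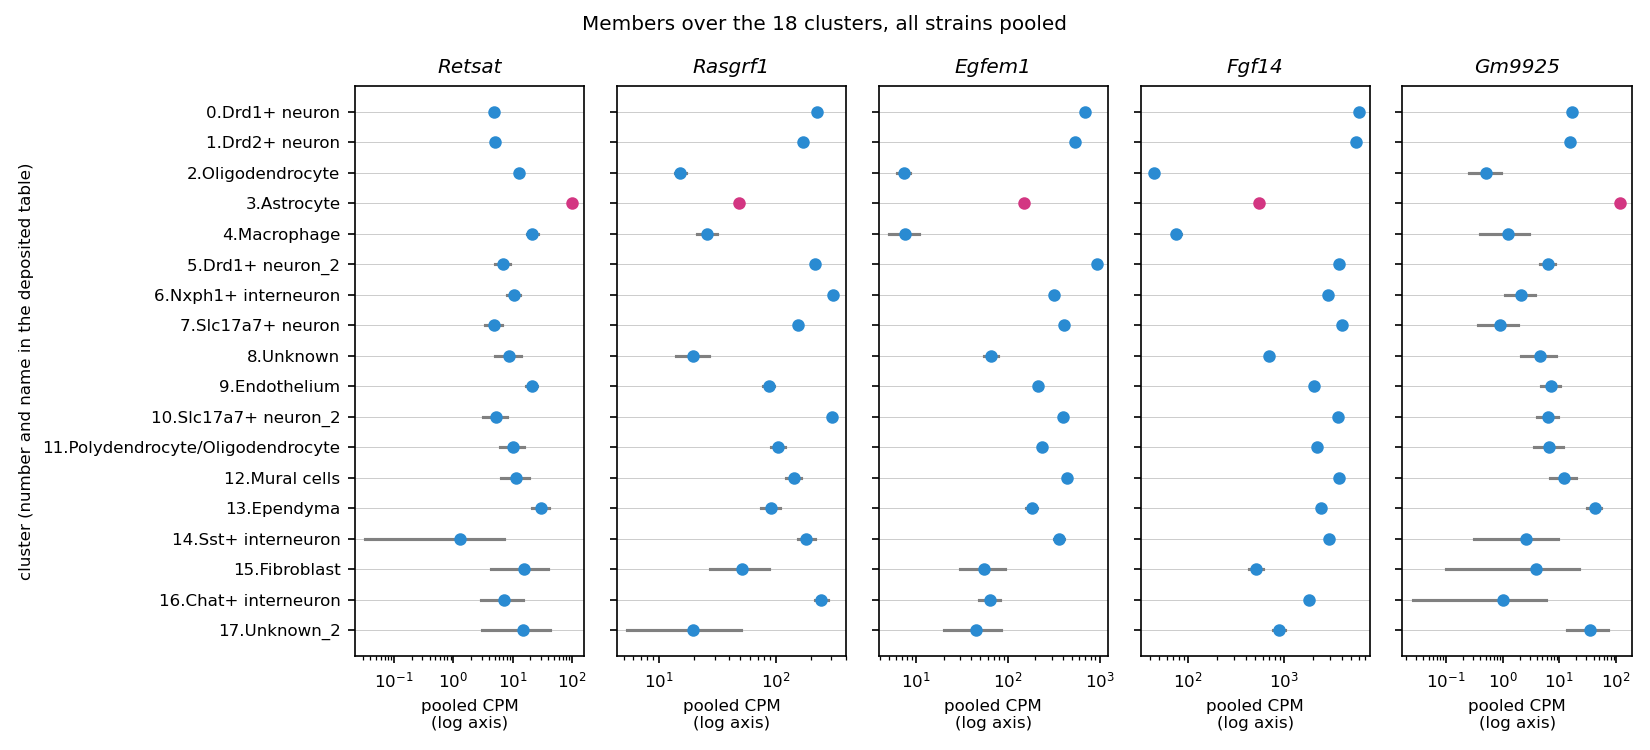
Level of each member in the 18 annotated clusters, as pooled CPM over all mice on a log axis; points are the pooled level, bars the 95% Poisson interval, and the astrocyte cluster is in magenta. Retsat and Gm9925 are highest in astrocytes, and Fgf14 is highest in Drd1+ neurons at 6107 CPM.

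Retsat, the retinol saturase gene, was high in the astrocytes of 3 strains. Values from here on are CPM scaled by edgeR's TMM method, per mouse in the order of batches 1 to 4. They were 289, 296, 426 and 342 in CAST/EiJ (338 ± 63.0, SD, n = 4), 188, 182, 380.3 and 226 in PWK/PhJ (244 ± 92.7) and 201, 165, 328 and 239 in NOD/ShiLtJ (233 ± 70.0). The other 20 mice lay between 19.97 and 62.8, so the 12 mice of these 3 strains did not overlap with them. Means of the other 5 strains ran from 34.0 ± 14.0 in C57BL/6 to 45.6 ± 10.4 in NZO/HlLtJ, and the mice of these strains overlapped. PWK/PhJ and NOD/ShiLtJ also differed by less than that spread. Batch 3 was the highest batch in 7 of the 8 strains.

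Outside astrocytes, Retsat was tested in 3 clusters and the strain term passed in 2 of them, at a Benjamini-Hochberg adjusted p under 0.05 in edgeR's quasi-likelihood F test (genes that pass are named as called below). In oligodendrocytes the CAST/EiJ mice had 33.2, 27.9, 26.0 and 23.0 CPM (27.5 ± 4.32, SD, n = 4). The highest of the other 28 mice had 20.4 CPM, so CAST/EiJ stood above every other mouse. The next means were 16.6 ± 2.40 in WSB/EiJ and 13.8 ± 0.209 in NOD/ShiLtJ, and the lowest was 6.53 ± 1.34 in C57BL/6 (adjusted p = 0.000606). Retsat entered this test through CAST/EiJ: the filter asked for 16.9 unscaled CPM in 4 mice, which 4 CAST/EiJ mice and 2 others reached. With every gene kept, the adjusted p was 0.000783. The set of high strains was thus not the one seen in astrocytes: PWK/PhJ oligodendrocytes had 12.4 ± 1.33 CPM. In CAST/EiJ the oligodendrocyte level was 8.14% of the astrocyte level, where the 9 astrocyte markers stood in oligodendrocytes at 2.95% to 20.7% of theirs; the part of astrocyte RNA in this result was not tested.

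In Drd1+ neurons Retsat was low in every strain, and the strain term passed (adjusted p = 0.0151). The PWK/PhJ mice had 4.75, 8.66, 9.26 and 4.92 CPM (6.90 ± 2.39), and the lowest mean was that of NZO/HlLtJ at 3.48 ± 1.14. PWK/PhJ and the other strains overlapped. Against the mean of the other 7 strains the log2 fold change of PWK/PhJ was 0.54 (SE 0.19, adjusted p = 0.0211). Both calls rest on batches 2 and 3: the adjusted p of the strain term was 0.100 without batch 2 and 0.193 without batch 3. CAST/EiJ, the strain with the highest astrocyte level, differed from the other strains in Drd1+ neurons by a log2 fold change of -0.01 (SE 0.22, adjusted p = 0.990; its sign changed with 3 of the 4 batches left out in turn), and NOD/ShiLtJ by 0.20 (SE 0.21, adjusted p = 0.609). In Drd2+ neurons the strain term of Retsat did not pass (adjusted p = 0.607).

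**Figure D2:**
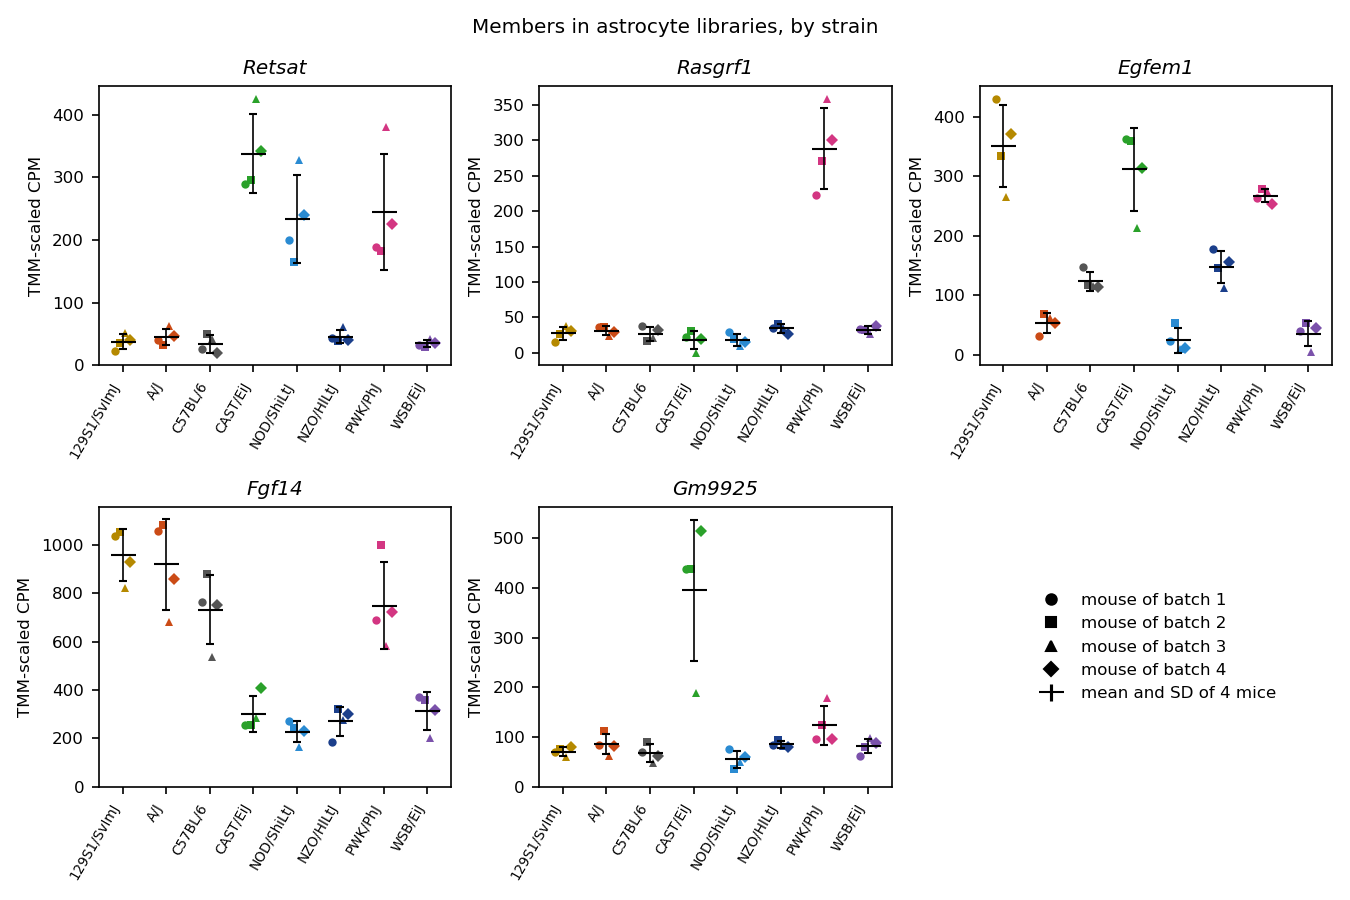
TMM-scaled CPM of each member in the astrocyte libraries of the 8 strains; each symbol is 1 mouse, its shape gives the batch, and bars give the mean and SD of 4 mice. The 3 high strains of Retsat, the single high strains of Rasgrf1 and Gm9925, and the wider gradations of Egfem1 and Fgf14 can be seen.

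Rasgrf1, the Ras exchange factor gene, was high in the astrocytes of a single strain. The 4 PWK/PhJ mice had 223, 271, 359 and 300.2 CPM (288 ± 56.9, SD, n = 4). The other 28 mice had 0 to 41.0 CPM, and the 7 strain means, from 17.8 ± 12.8 in CAST/EiJ to 34.4 ± 5.97 in NZO/HlLtJ, belonged to strains whose mice overlapped. Within the same mice, the level in astrocytes was 1.30 ± 0.261 times that in Drd1+ neurons in PWK/PhJ, against means of 0.0784 to 0.150 times in the other strains.

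Drd1+ and Drd2+ neurons did not have PWK/PhJ as the highest strain of Rasgrf1. In Drd1+ neurons the PWK/PhJ mice had 209, 233, 216 and 229.7 CPM (222 ± 11.2). Strain means ran from 209 ± 11.6 in CAST/EiJ to 243 ± 21.5 in NZO/HlLtJ, and all strains overlapped with PWK/PhJ. The strain term did not pass (adjusted p = 0.0815), and the contrast of PWK/PhJ with the other 7 gave a log2 fold change of -0.03 (SE 0.06, adjusted p = 0.718), which was 0.013 without batch 1. In Drd2+ neurons the strain term did pass (adjusted p = 0.000691), with NZO/HlLtJ highest at 202 ± 27.5 CPM, WSB/EiJ lowest at 144 ± 11.8 and PWK/PhJ at 163 ± 16.5. Of 7 clusters in which Rasgrf1 was tested outside astrocytes, that was the 1 in which it was called. Oligodendrocytes were among those that did not pass (adjusted p = 0.288), with PWK/PhJ at 13.3, 18.2, 0 and 12.8 CPM and the other 28 mice at 4.37 to 29.0.

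Macrophages, unlike oligodendrocytes, also had Rasgrf1 high in PWK/PhJ. The PWK/PhJ mice had 136, 66.5, 105 and 82.8 CPM (97.5 ± 30.0, SD, n = 4). Means of the other strains were 15.5 to 31.8 CPM, and their highest mouse, the CAST/EiJ mouse of batch 2, had 62.3 CPM, so PWK/PhJ stood above all 28. Rasgrf1 did not pass the filter on low counts in macrophages, and the test exists only without that filter (adjusted p = 0.000363), where 6.70% of the genes tested were called. It was 1 of 14 tests of members outside astrocytes that exist only in this way, and the others did not pass; the lowest adjusted p among them was 0.279, for Gm9925 in the second Drd1+ cluster. In PWK/PhJ the macrophage level was 33.8% and the oligodendrocyte level 3.84% of the astrocyte level. The 9 astrocyte markers stood in macrophages at 4.34% to 40.5% of their astrocyte level (median 7.34%), the highest being Slc1a3; the part of astrocyte RNA in the macrophage value was not tested.

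Egfem1, the EGF-like and EMI domain gene, graded over the strains in astrocytes. The mean was 350.5 ± 68.8 CPM in 129S1/SvImJ (430.3, 334, 266 and 371), 312 ± 69.7 in CAST/EiJ (362, 359.6, 213 and 313) and 268 ± 11.3 in PWK/PhJ (263, 279, 275 and 254). Intermediate means were 148 ± 26.9 in NZO/HlLtJ and 124 ± 15.8 in C57BL/6. The lowest were 53.8 ± 16.3 in A/J, 36.0 ± 21.3 in WSB/EiJ and 24.7 ± 20.7 in NOD/ShiLtJ. These formed 3 tiers whose mice did not overlap: 12 mice at 213 to 430.3 CPM, 8 at 113 to 178 and 12 at 5.14 to 68.1. Within a tier, neighbouring strains overlapped.

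The strain term of Egfem1 passed in 5 of 6 clusters tested outside astrocytes, with a narrower range of means in neurons. In Drd1+ neurons (adjusted p = 5.66e-06) NOD/ShiLtJ was lowest with 554, 509.8, 409 and 525 CPM (499 ± 63.2) and CAST/EiJ highest with 876, 897, 740.3 and 922 (859 ± 81.2), a ratio of 1.72; these groups of mice did not overlap. Against the other 7 strains, the log2 fold change was -0.56 (SE 0.09, adjusted p = 8.69e-05) in NOD/ShiLtJ, -0.36 (SE 0.09, adjusted p = 0.00603) in A/J, 0.34 (SE 0.09, adjusted p = 0.00318) in CAST/EiJ and 0.31 (SE 0.09, adjusted p = 0.0114) in WSB/EiJ. NOD/ShiLtJ and A/J were thus low and CAST/EiJ high in both clusters, and WSB/EiJ was high in Drd1+ neurons and in the lowest tier in astrocytes. The calls of A/J and WSB/EiJ were lost when single batches were left out, the former without batch 2 and the latter without batch 3 or 4, and the WSB/EiJ fold change fell to 0.16 without batch 3.

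Drd1+ and Drd2+ neurons are the projection neurons of the direct and indirect pathways, and Egfem1 differed between them in its strain pattern. In Drd2+ neurons (adjusted p = 1.11e-06) WSB/EiJ had the highest mean at 771 ± 72.5 CPM, followed by PWK/PhJ at 697 ± 89.4 and CAST/EiJ at 694 ± 96.7, and A/J the lowest at 403 ± 85.8. The PWK/PhJ mice had 697, 816, 676 and 599 CPM in Drd2+ against 703, 721, 599 and 549 in Drd1+ neurons, while the 129S1/SvImJ mice had 522, 538, 477 and 419 in Drd2+ against 969, 844, 682 and 775 in Drd1+ neurons. Every 129S1/SvImJ mouse was thus lower in Drd2+ neurons, and 3 of 4 PWK/PhJ mice were higher there. The interaction of strain and cluster, fitted with the mouse as a block, was called (adjusted p = 2.31e-07), as it was for 4.58% of 13791 genes. Without that block it did not pass (adjusted p = 0.0666), and 96 genes were called in place of 631. Egfem1 was the 1 member of 5 called; the adjusted p was 0.0773 for Rasgrf1, 0.607 for Fgf14, 0.772 for Retsat and 0.967 for Gm9925.

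Egfem1 also passed in the second Drd1+ cluster (adjusted p = 0.000448), where NOD/ShiLtJ was lowest at 699 ± 217 CPM and CAST/EiJ highest at 1245 ± 169. In the Polydendrocyte/Oligodendrocyte cluster (adjusted p = 0.00473) the lowest means were 77.7 ± 35.7 CPM in WSB/EiJ (n = 3) and 84.1 ± 56.2 in NOD/ShiLtJ (n = 4), and the highest was 616 ± 403 in CAST/EiJ (n = 3), with values of 958, 172 and 719. WSB/EiJ was low there, as in astrocytes. In endothelium (adjusted p = 0.00293) PWK/PhJ was highest at 525 ± 320 CPM, with single mice at 302, 627, 932 and 240.1, and NOD/ShiLtJ lowest at 135 ± 72.4. These last 2 calls were fragile: the Polydendrocyte/Oligodendrocyte call was lost without batch 1 (adjusted p = 0.140) or 4 (0.0853), and the endothelial call without batch 2 (0.150) or 3 (0.0730). Single nuclei held many of the counts in both clusters. In Polydendrocyte/Oligodendrocyte, 1 nucleus had 18 of the 33 Egfem1 counts of the CAST/EiJ mouse of batch 4. In the NOD/ShiLtJ mouse of that batch, 1 nucleus had all 11. In endothelium, 1 nucleus had 22 of the 30 counts of the PWK/PhJ mouse of batch 4. RNA of neurons was also present in both. The 6 projection neuron markers summed to 1970 pooled CPM in Polydendrocyte/Oligodendrocyte and 2406 in endothelium. Their sum was 1216 in astrocytes and 5977 in Drd1+ neurons. The part of neuronal RNA in these 2 calls was not tested.

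**Figure D3:**
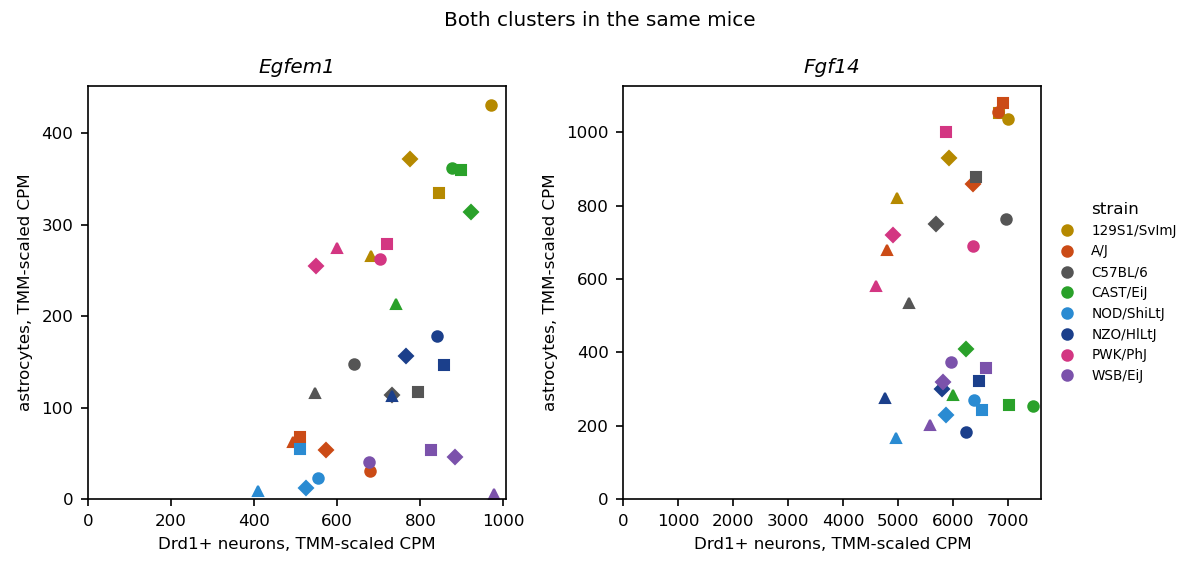
Egfem1 and Fgf14 in astrocytes (vertical axis) against Drd1+ neurons of the same mice (horizontal axis), in TMM-scaled CPM; each symbol is 1 mouse, coloured by strain and shaped by batch. WSB/EiJ is low in astrocytes at a high neuronal level of Egfem1, and for Fgf14 the strains fall into 2 bands in astrocytes over a shared neuronal range.

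Fgf14, the sodium channel partner, split the strains into 2 bands in astrocytes. The high band held 129S1/SvImJ at 959 ± 107 CPM, A/J at 919 ± 188, PWK/PhJ at 748 ± 179 and C57BL/6 at 731 ± 143, and its 16 mice lay at 534 to 1080.2 CPM. The low band held WSB/EiJ at 312 ± 77.9, CAST/EiJ at 301 ± 73.3, NZO/HlLtJ at 270.1 ± 61.3 and NOD/ShiLtJ at 227 ± 44.0, and its 16 mice lay at 166 to 409 CPM. The bands did not overlap, and within each band neighbouring strains differed by less than the spread among mice. The astrocyte level was 0.156 times that in Drd1+ neurons in 129S1/SvImJ and 0.0381 times in NOD/ShiLtJ, on average within mice.

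In Drd1+ neurons the range of Fgf14 was small. The lowest mean was 5436 ± 820.1 CPM in PWK/PhJ (6359, 5874, 4601 and 4909) and the highest 6679 ± 681 in CAST/EiJ (7465, 7015, 5999 and 6236), a ratio of 1.23. Batch 3 was the lowest batch in each of the 8 strains. The strain term passed with batch in the fit (adjusted p = 0.00184) and not without it (adjusted p = 0.552). Against the other 7 strains, PWK/PhJ was lower by a log2 fold change of -0.18 (SE 0.04, adjusted p = 0.00155) and CAST/EiJ higher by 0.17 (SE 0.04, adjusted p = 0.0014); neither passed without batch in the fit. Both signs were opposite to the band these strains had in astrocytes.

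Fgf14 passed in 4 of the 8 clusters tested outside astrocytes, each time with batch in the fit and each time lost without it. Besides Drd1+ neurons these were Drd2+ neurons (adjusted p = 0.000731, and 0.417 without batch), oligodendrocytes (0.000936, and 0.186) and the second Drd1+ cluster (0.00771, and 0.0504). In Drd2+ neurons the order again ran from PWK/PhJ at 5000.0 ± 682 CPM to CAST/EiJ at 6183 ± 657. In the second Drd1+ cluster it ran from PWK/PhJ at 3705 ± 332 to CAST/EiJ at 4771 ± 710. In oligodendrocytes WSB/EiJ was lowest at 28.7 ± 10.7 CPM and 129S1/SvImJ highest at 55.6 ± 34.3, the latter through its batch 1 mouse at 106 CPM. In that mouse 63 of the 93 Fgf14 counts came from 1 of 484 nuclei, and its unscaled level was 101 CPM with that nucleus and 33.2 CPM without it. Without batch 1 the adjusted p was 0.109. The second Drd1+ cluster's call was lost without batch 1, 2 or 3, at adjusted p of 0.0891, 0.151 and 0.0746.

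Gm9925, the long noncoding RNA at chr18:74065054-74068514 of GRCm38, was highest in CAST/EiJ in astrocytes. The CAST/EiJ mice had 439, 437, 189 and 515 CPM (395 ± 142, SD, n = 4), and the lowest of them was the library of 23 nuclei. The other 28 mice had 34.8 to 179.6 CPM, with PWK/PhJ next at 124 ± 39.7 and NOD/ShiLtJ lowest at 55.5 ± 17.2. The highest of the others, the PWK/PhJ mouse of batch 3, stood just under the lowest CAST/EiJ mouse. Means of CAST/EiJ and of all other mice differed by a ratio of 4.84.

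Both large neuron clusters showed Gm9925 high in the same strain, and these values did not enter the choice of members. In Drd1+ neurons the CAST/EiJ mice had 44.1, 34.6, 67.0 and 57.2 CPM (50.7 ± 14.3), and the other 28 mice 5.19 to 19.5. In Drd2+ neurons the CAST/EiJ mice had 36.1, 42.5, 60.3 and 55.7 (48.7 ± 11.3), and the others 7.07 to 17.2. The groups did not overlap in either cluster, the ratio of means was 3.88 and 4.25, and the strain term was called in both (adjusted p = 7.33e-11 and 6.17e-15). In Drd1+ neurons the log2 fold change of CAST/EiJ against the other 7 strains was 1.93 (SE 0.14, adjusted p = 4.44e-13). 129S1/SvImJ (-0.63, SE 0.19, adjusted p = 0.0235) and C57BL/6 (-0.57, SE 0.19, adjusted p = 0.0404) also passed, on the low side. The mean they were set against holds CAST/EiJ, which lowers both values. Their means of 10.6 and 10.3 CPM stood next to A/J at 12.4, NZO/HlLtJ at 12.7 and NOD/ShiLtJ at 13.0. The call of 129S1/SvImJ was lost without batch 1 or 2 and that of C57BL/6 without batch 2, 3 or 4.

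The neuronal level of Gm9925 was 14.3% of the astrocyte level in Drd1+ neurons, where the 9 astrocyte markers stood at 0.783% to 73.5% of theirs with a median of 2.17%. The upper end was Slc4a4 alone, and the next highest marker was Gfap at 6.35%. Within each strain the value of Gm9925 was 12.8% in CAST/EiJ and 13.0% to 23.5% in the others. Oligodendrocytes held Gm9925 at 0.442% of the astrocyte level, below all 9 markers there. The part of astrocyte RNA in the neuronal values was not tested. In ependyma, pooled over mice and not tested, CAST/EiJ had 10 counts or 99.1 CPM (95% Poisson interval 47.5 to 182), and the other strains had 9.54 to 72.8 CPM.

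**Figure D4:**
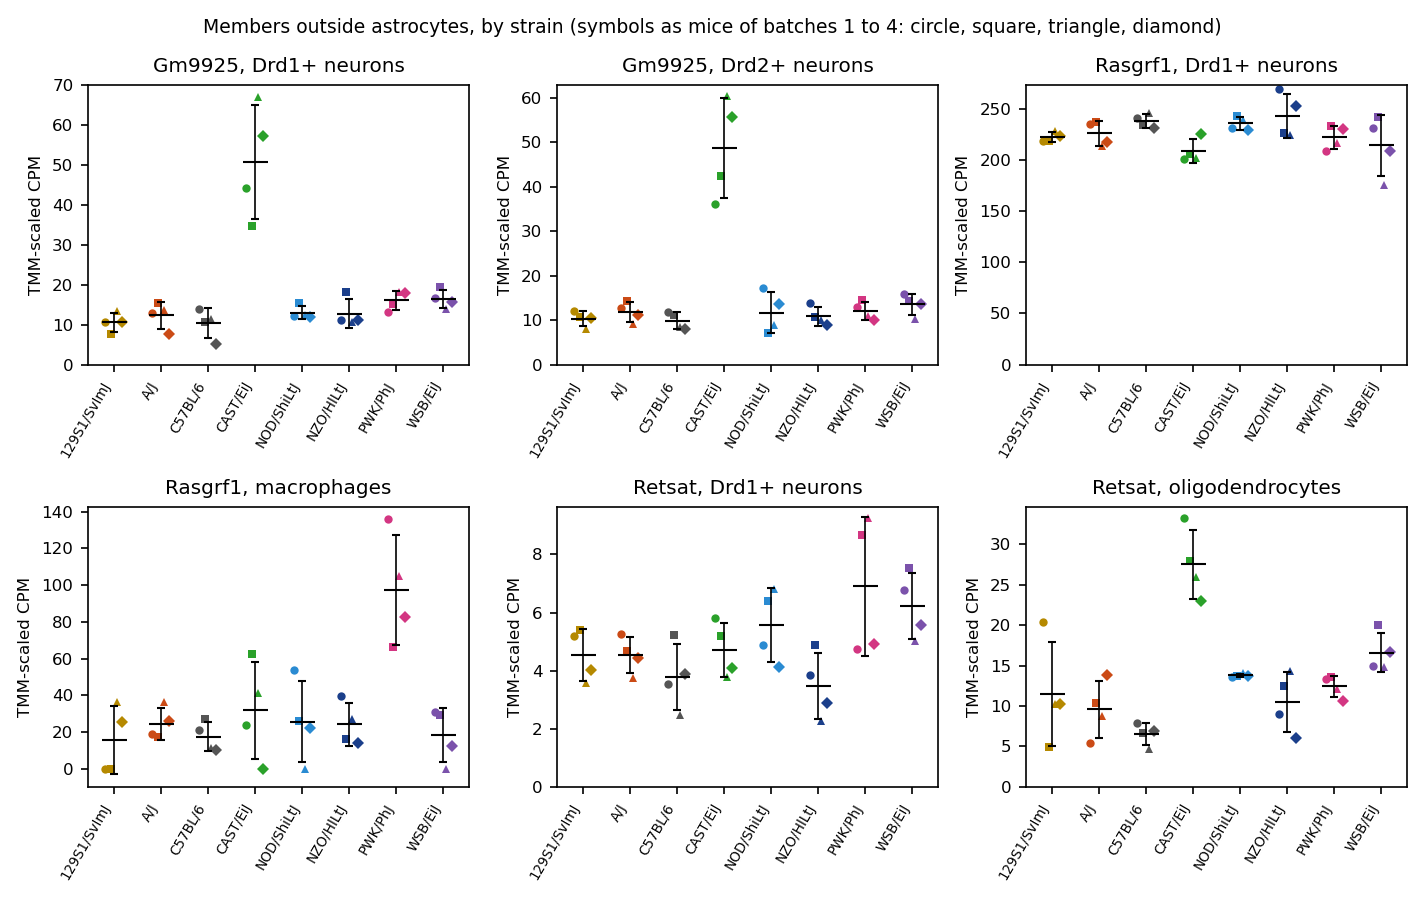
Members in clusters other than astrocytes, in TMM-scaled CPM by strain; each symbol is 1 mouse, its shape gives the batch, and bars give the mean and SD of 4 mice. Gm9925 is high in CAST/EiJ in both neuron clusters, Rasgrf1 in PWK/PhJ is within the range of the other strains in Drd1+ neurons and above it in macrophages, and Retsat in oligodendrocytes is highest in CAST/EiJ.

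Counted together, 26 pairs of member and cluster outside astrocytes passed the filter on low counts, of 40, and 14 of them were called by the strain term. In Drd1+ and in Drd2+ neurons 4 of 5 members were called, where 61.7% and 55.9% of all genes tested were. In oligodendrocytes it was 2 of 3 against 34.8%, where Retsat had passed the filter through its high strain. It was 2 of 3 against 17.3% in the second Drd1+ cluster, in endothelium 1 of 3 against 3.23%, and in the Polydendrocyte/Oligodendrocyte cluster 1 of 3 against 1.24%. In Nxph1+ interneurons 0 of 3 were called against 1.53%, and in macrophages, where Fgf14 was the 1 member tested, 0 of 1 (adjusted p = 0.304) against 24.8%; at an unadjusted p under 0.05 edgeR had 0 in both, and DESeq2 called 0 in both. Without the filter on low counts Fgf14 was called in macrophages (adjusted p = 0.0103); in the CAST/EiJ mouse of batch 2, 38 of its 41 Fgf14 counts there came from 1 nucleus. In astrocytes, where the members were chosen, 21.5% of genes were called. In the large neuron clusters the members' share was therefore near the background.

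In the contrasts of single strains in Drd1+ neurons, 10 of 40 for the members were called. The share of all genes called was 12.3% in 129S1/SvImJ, 17.2% in A/J, 13.9% in C57BL/6, 32.8% in CAST/EiJ, 15.9% in NOD/ShiLtJ, 19.7% in NZO/HlLtJ, 34.3% in PWK/PhJ and 17.0% in WSB/EiJ. Gm9925 had 3 of the 10 calls, Egfem1 4, Fgf14 2 and Retsat 1. Those of Gm9925 in 129S1/SvImJ and C57BL/6 were against a mean that holds its high strain, CAST/EiJ. Rasgrf1 had 0 of 8 called, with 2 at an unadjusted p under 0.05 in edgeR and 0 called by DESeq2. NZO/HlLtJ had 0 of 5, with 3 at an unadjusted p under 0.05 and 0 called by DESeq2. The interaction of strain and cluster between Drd1+ neurons and oligodendrocytes called 16.9% of genes and 0 of 5 members in edgeR, with 2 of them, Retsat and Fgf14, at an unadjusted p under 0.05. Adjusted p ran from 0.103 for Retsat to 0.457 for Gm9925.

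The strain differences in astrocytes could also be read as shares of nuclei with at least 1 count of a gene, after each nucleus was thinned to 1000 UMIs (unique molecular identifiers, 1 per captured transcript). Of 4748 nuclei, 116 had fewer and were left out, and the median before thinning was 2076 to 2458 UMIs by strain. Rasgrf1 was seen in 20.8% of PWK/PhJ nuclei (exact 95% binomial interval 17.2% to 24.7%) and in 1.57% to 3.77% in the other strains. Retsat was seen in 22.6% of CAST/EiJ, 17.1% of NOD/ShiLtJ and 16.5% of PWK/PhJ nuclei, and in 2.28% to 4.10% elsewhere.

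Gm9925 was seen in 33.2% of CAST/EiJ nuclei and in 5.70% to 10.2% elsewhere, Egfem1 in 2.16% (NOD/ShiLtJ) to 25.3% (129S1/SvImJ), and Fgf14 in 15.1% (NZO/HlLtJ) to 53.6% (129S1/SvImJ). Without thinning the highest shares were 37.9% for Rasgrf1, 53.2% for Gm9925, 41.6% for Egfem1 and 75.6% for Fgf14, and for Retsat 234 of 585 CAST/EiJ nuclei. Oligodendrocytes, with a median of 1640 UMIs, gave thinned shares over all strains of 1.51% for Rasgrf1, 1.44% for Retsat, 0.0542% for Gm9925, 0.695% for Egfem1 and 3.66% for Fgf14. These shares pool the nuclei of 4 mice per strain, or of all mice, and no test was made of the differences between clusters.

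**Figure D5:**
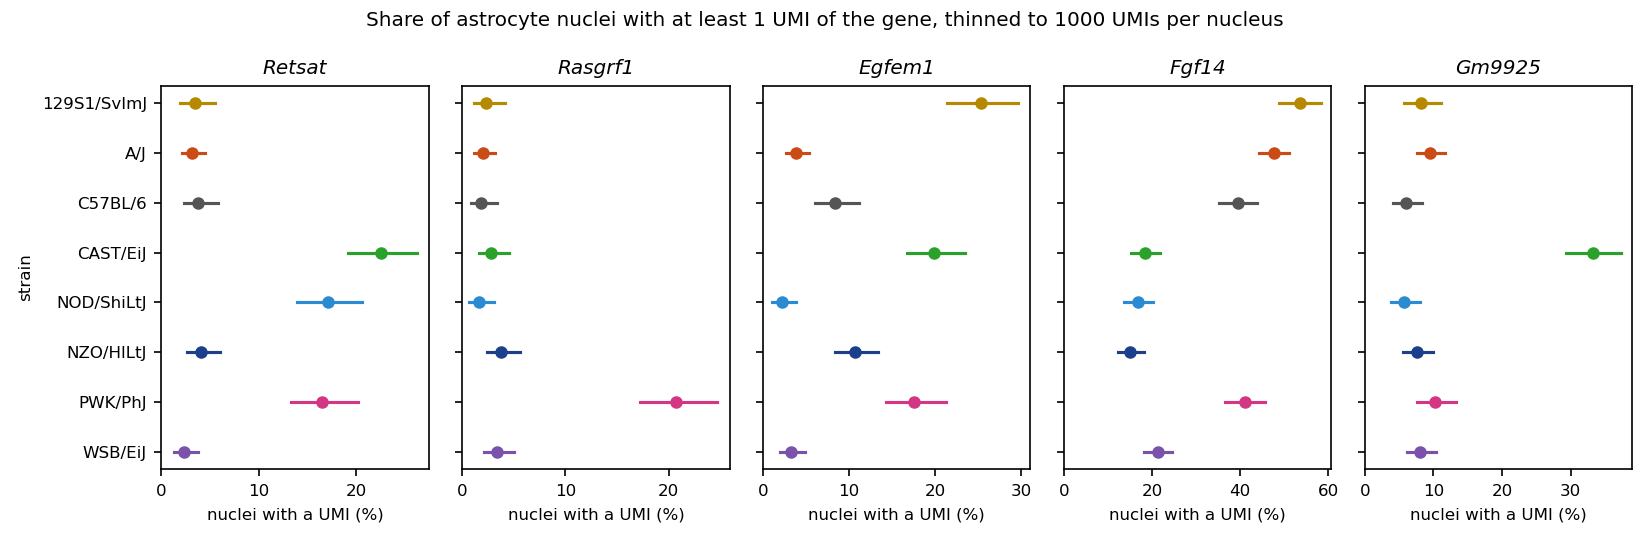
Share of astrocyte nuclei with at least 1 UMI of each member by strain, after thinning to 1000 UMIs per nucleus; points are the share over the nuclei of 4 mice and bars the exact 95% binomial interval, which covers counting error only. PWK/PhJ stands at 20.8% for Rasgrf1 and CAST/EiJ at 33.2% for Gm9925.

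The members were also read in the astrocyte nuclei with a lower share of neuron marker UMIs, as a description of the same counts that chose them. Among the 2373 nuclei whose share of UMIs from 34 neuron markers was below the median (0.0996% of their UMIs, against 0.185% in all astrocyte nuclei), with 16 nuclei or more per mouse, Rasgrf1 had 253 ± 83.7 CPM in PWK/PhJ and means of 13.1 to 29.1 in the other strains (unscaled CPM). Retsat had 382 in CAST/EiJ, 239 in PWK/PhJ and 220 in NOD/ShiLtJ, against 25.9 to 51.5 elsewhere. Egfem1 ran from 27.3 in NOD/ShiLtJ to 383 in 129S1/SvImJ, Fgf14 from 222 in NOD/ShiLtJ to 958 in 129S1/SvImJ, and Gm9925 stood at 339 in CAST/EiJ. The strain with the highest mean was the one seen in all astrocyte nuclei for each member. For Rasgrf1 the lowest strain was NOD/ShiLtJ here and CAST/EiJ in all nuclei. The split lowered the neuron marker share without removing it. These nuclei were picked by the same marker counts, so the lower marker share follows from the cut. Whether they held less RNA of neurons was not tested, nor was the part of neuronal RNA in the astrocyte values.

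Relatives of the members were read from lists of genes named for their role, with the members left out; the strain term has no direction. Over all genes tested, 21.5% were called in astrocytes and 61.7% in Drd1+ neurons. Retinoid genes were called in astrocytes in 2 of 13 tested (median F 1.40, the value over all genes tested) and in 9 of 14 in Drd1+ neurons (median F 3.52 against 3.38 over all). The 2 were Aldh1a1, which makes retinoic acid, at 192 ± 39.4 CPM in 129S1/SvImJ and 29.7 ± 10.7 in WSB/EiJ (adjusted p = 3.2e-05), and Rarb, a retinoic acid receptor, at 122 ± 25.1 in PWK/PhJ and 42.1 ± 15.3 in WSB/EiJ (adjusted p = 8.78e-07). Ras exchange factors, Ras genes and GTPase activating genes were called in 2 of 14 (median F 1.34): Rasgrp1 (adjusted p = 0.00361) and Rasal2 (0.0493), with 1 or none left in 6 of the alternatives tried. In Drd1+ neurons 12 of 18 passed, near the 61.7% of all genes.

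FGF homologous factors and sodium channel subunits were called in 2 of 7 in astrocytes (median F 2.32). Both were relatives of Fgf14: Fgf13 at 684 ± 95.05 CPM in 129S1/SvImJ and 103 ± 41.3 in PWK/PhJ (adjusted p = 8.07e-26), and Fgf12 at 475 ± 63.0 in A/J and 227 ± 42.8 in C57BL/6 (adjusted p = 7.14e-10). Fgf13 was thus low in PWK/PhJ, a strain of the high band of Fgf14. In Drd1+ neurons 10 of 11 of this list passed, against 61.7% of all genes, and in astrocytes the 2 of 7 stand against 21.5%. FGF ligands and receptors were called in 2 of 6 (median F 2.06), Fgf1 and Fgfr1, and in 4 of 9 in Drd1+ neurons.

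Imprinted genes were called in 2 of 12 in astrocytes, against 21.5% of all genes (median F 1.73). These were Plagl1 at 49.6 ± 12.2 CPM and Meg3 at 246 ± 46.8, both highest in PWK/PhJ, the high strain of Rasgrf1 (adjusted p = 0.000443 and 0.0241). In Drd1+ neurons Meg3 was lowest in PWK/PhJ, at 3372 ± 305 CPM. Genes listed for EGF-like or EMI domains, not all of them with both, were called in astrocytes in 2 of 4 (median F 1.90), Scube1 and Megf9. In Drd1+ neurons 9 of 16 and 4 of 7 passed. Genes of astrocyte function were called in 21 of 30 in astrocytes, against 21.5% of all genes (median F 3.97 against 1.40), and in 12 of 30 in Drd1+ neurons, a smaller share than the 61.7% of all genes (median F 1.54 against 3.38). The count of 21 became 13 without batch in the fit or without the mice of batch 2. The 9 astrocyte markers, all on this list, stood in Drd1+ neurons at 0.783% to 73.5% of their astrocyte level (median 2.17%). The shares called were not compared among genes of like level. The 3 with the largest F were Gfap, highest in NZO/HlLtJ at 244 ± 159 CPM, Sparcl1, highest in NOD/ShiLtJ at 3699 ± 641, and Mfge8, highest in WSB/EiJ at 750 ± 269.

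The nearest tested genes on either side of each member were read for the same strain pattern. Elmod3 lies on the other strand, and its start, 0.171 kb from that of Retsat, falls within the Retsat promoter window shown above. Elmod3 was called (adjusted p = 0.0277), with A/J highest at 43.1 ± 11.9 CPM and PWK/PhJ lowest at 14.0 ± 11.7. Tgoln1 lies 0.932 kb after Retsat and was called too (adjusted p = 0.0234), with NZO/HlLtJ highest at 74.7 ± 20.5 and PWK/PhJ lowest at 31.9 ± 16.4. CAST/EiJ, the highest strain of Retsat, had 17.7 CPM of Elmod3 and 45.8 CPM of Tgoln1, and for both genes the mice of the 3 high strains of Retsat overlapped with the others. Over the 32 libraries, after subtracting batch means, Retsat had r = -0.381 with Tgoln1 and -0.455 with Elmod3, given as a description. Mapk4 overlaps Gm9925 by 381 bases and did not pass (adjusted p = 0.240), with CAST/EiJ at 405 CPM in a range of means from 313 in NOD/ShiLtJ to 492 in 129S1/SvImJ; whether the counting used strand is not given in the sources used here. The tested neighbours of Rasgrf1, Tmed3 at 204 kb and Morf4l1 at 64.7 kb, did not pass. Those of Egfem1, Rpl22l1 at 274 kb and Mynn at 911 kb, did not pass either. Fgf14 had a tested neighbour on 1 side, Nalcn at 347 kb, which did not pass. Mro, 184 kb before Gm9925, was called with WSB/EiJ highest (adjusted p = 0.00256), and Mbd1, on its other side, did not pass.

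Other genes shared the members' profiles over the 32 astrocyte libraries. Likeness was the Pearson correlation of log2 CPM after subtracting batch means, over 8202 candidate genes, given as a description of libraries that share strains and depth. Closest to Retsat were Kcnip1 (r = 0.878), Adora2b (0.862) and Pbxip1 (0.816). Closest to Rasgrf1 were 4933401D09Rik (0.893), Zmym6 (0.885) and Iffo1 (0.851), each highest in PWK/PhJ. Closest to Gm9925 were E130102H24Rik (0.866), Nat8f1 (0.859) and Cntn4 (0.855), each highest in CAST/EiJ.

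Egfem1 was most like Grin2b (0.838), AC149090.1 (0.772) and Hace1 (0.723), and Fgf14 most like 9630001P10Rik (0.732), Tifa (0.678) and Glrb (0.674). Where a position was known, each of these genes lay on another chromosome than the member it resembled.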

How the data were processed

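Single-nucleus RNA counts of 32 striata, deposited by the authors as 1 raw UMI count table per batch, were read with the deposited table of nuclei (other categories: batch, strain, doublet call, cluster). Per the submitters' processing notes, Cell Ranger ARC 2.0.0 and bcl2fastq 2.20.0.422 were used. Per the description deposited with the tables, Demuxlet assigned strains and DoubletFinder marked doublets, and all 55672 annotated nuclei of 89339 barcodes were singlets of the same strain by RNA and by chromatin. Annotated nuclei held 43538698 to 77698312 counts per batch, the depth that limits low genes. Peak positions were taken from the deposited index; the peak caller is not given in the sources used here.

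Counts were summed per mouse and cluster, with at least 10 nuclei per library. Genes passing edgeR's filter on low counts by strain were tested with edgeR 4.0.16 (TMM scaling, robust quasi-likelihood fit, strain and batch as terms, F test of strain with 7 degrees of freedom, Benjamini-Hochberg within a cluster; R 4.3.3). Contrasts set 1 strain against the mean of the other 7, and interactions used the mouse as a block. The scripts were tested on simulated data. Mice of 1 batch are tied by the pooled library. Over 8207 genes of astrocytes, deviations from strain means had a mean correlation of 0.0536 within batches (Drd1+ neurons 0.123), so batch stayed in the fit. Between batches it was -0.0167 (Drd1+ neurons -0.0405). The negative values follow from those within batches, since deviations from a strain mean cancel over its mice. P-values set strain differences against the spread among mice that remains after strain and batch, with 1 estimate per gene shared by all strains. For interactions it is the spread that remains within mice. The SDs given include differences between batches.

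Alternatives were DESeq2 1.42.0 size factors, no filter, the DESeq2 test (not for interactions), no batch or mouse block, at least 20 nuclei, and each batch left out. The astrocyte nuclei with few neuron UMIs, meaning a low share of neuron marker UMIs, were chosen after seeing the data. The members and lists were chosen with earlier results of these data known. Genes named are the members, up to 3 called genes per list with the largest F, the nearest tested gene on either side, and the 3 genes most correlated with each member among those with a mean of at least 10 CPM. A gene that this rule names is not reported here. No promoter of Gm9925 and no protein sequence is shown, and sequences came from RefSeq on GRCm38.p6, the build of the files.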

Additional observations from a re-analysis of the deposited data

Results flagged for a closer look

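Of 168 groups of 4 mice examined (each member in each strain, in astrocytes and in the clusters whose values are given above), 4 had 1 mouse far from the others; chance flags about 1 in 20 groups. Egfem1 in C57BL/6 astrocytes had 147 CPM in the mouse of batch 1, against 114 to 117 in the other 3. Fgf14 in A/J oligodendrocytes had 32.7 CPM in the mouse of batch 3, against 61.7 to 63.6. Gm9925 in Drd1+ neurons of NOD/ShiLtJ had 15.5 CPM in the mouse of batch 2, against 12.0 to 12.5. Gm9925 in Drd1+ neurons of NZO/HlLtJ had 18.2 CPM in the mouse of batch 2, against 10.6 to 11.1. All 4 mice stayed within the range of the other strains.

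The strain pattern of Egfem1 differed between Drd1+ and Drd2+ neurons by a test of the difference itself, the edgeR interaction of strain and cluster (adjusted p = 2.31e-07, and 0.0666 without the mouse as a block).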

How the results depend on the processing

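In astrocytes the log2 ratio of the highest to the lowest strain mean moved from 4.02 to between 3.62 and 4.43 for Rasgrf1, from 3.83 to 3.58 to 4.59 for Egfem1, from 3.31 to 3.29 to 3.88 for Retsat, from 2.83 to 2.57 to 3.03 for Gm9925 and from 2.08 to 2.03 to 2.13 for Fgf14 over scaling, nuclei per library, left-out batches and the nuclei with few neuron UMIs. Egfem1 passed Rasgrf1 without batch 2 or 3, and Retsat passed Egfem1 in the nuclei with few neuron UMIs. Members' strain terms outside astrocytes and interactions kept their side of the threshold in 289 adjusted p-values, with 15 calls lost and 7 gained. The contrasts named kept direction and call in 100 values, lost the call in 12 and changed sign in 5. Without the replicate block, members called fell from 2 to 1 in oligodendrocytes and in the second Drd1+ cluster, and from 1 to 0 in the Drd1+ and Drd2+ interaction (genes 631 to 96); in the Drd1+ and oligodendrocyte interaction they rose from 0 to 2 (Retsat and Fgf14), and endothelial genes fell from 161 to 71. The strain term of Fgf14 also lost its call in Drd1+ and in Drd2+ neurons without the block. The strain terms of the other members kept their calls, and of the contrasts only those of Fgf14 changed. Without the filter on low counts, members called became 2 in macrophages (Rasgrf1 and Fgf14, the latter at adjusted p = 0.0103), 2 in the Polydendrocyte/Oligodendrocyte cluster (Rasgrf1 at 0.0437) and 1 in the Drd1+ and oligodendrocyte interaction (Fgf14 at 0.00216), and genes became 527 in endothelium, 468 in Nxph1+ interneurons and 221 in the Polydendrocyte/Oligodendrocyte cluster. The DESeq2 test called 109 genes in Nxph1+ interneurons and 75 in the Polydendrocyte/Oligodendrocyte cluster, against 61 and 26.

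With each batch left out, which also leaves fewer mice, genes called were 1138 to 1675 in astrocytes (main 1767), 628 to 780 in the second Drd1+ cluster (958), 24 to 46 in Nxph1+ interneurons, 63 to 138 in endothelium, 6 to 58 in the Polydendrocyte/Oligodendrocyte cluster and 1510 to 2246 in the Drd1+ and oligodendrocyte interaction (2352). In the Drd1+ contrasts they were 1082 to 1294 for 129S1/SvImJ (1652), 1466 to 1937 for A/J (2311), 1238 to 1445 for C57BL/6 (1873), 1363 to 1640 for NOD/ShiLtJ (2133), 1751 to 2427 for NZO/HlLtJ (2650) and 1458 to 1874 for WSB/EiJ (2277). Members called were 1 to 2 in oligodendrocytes and in the second Drd1+ cluster, 0 to 1 in endothelium and the Polydendrocyte/Oligodendrocyte cluster, 1 to 2 in the Drd1+ and Drd2+ interaction (Rasgrf1 at adjusted p = 0.0197 without batch 3) and 0 to 1 in the Drd1+ and oligodendrocyte interaction (Fgf14 at 0.0480 without batch 3). Contrasts near 0 changed sign: Retsat in CAST/EiJ was 9.33e-05 with DESeq2 size factors and -0.141 to 0.0701 over left-out batches, and Rasgrf1 in PWK/PhJ -0.0488 to 0.0132; the cause of changes other than fewer mice or genes was not tested. Retsat had 509 counts in all Drd1+ neurons, near 5 CPM, so its values per mouse there rest on few counts.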

Other observations

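Relatives of the members also differed by strain in Drd1+ neurons, where 61.7% of all genes tested were called. Those named here are some of the up to 3 called genes with the largest F of each list. Rarb had 1531 ± 80.9 CPM in A/J and 956 ± 38.5 in PWK/PhJ (SD, n = 4; edgeR quasi-likelihood adjusted p = 1.47e-12). Rarb was thus lowest in neurons in the strain where it was highest in astrocytes; that difference was not tested. Rasgrf2, the closest relative of Rasgrf1, had 54.3 ± 10.2 CPM in CAST/EiJ and 15.1 ± 2.68 in NZO/HlLtJ (adjusted p = 3.83e-05). Fgf2, a secreted FGF, had 14.0 ± 2.65 CPM in CAST/EiJ and 2.26 ± 0.832 in NZO/HlLtJ (adjusted p = 7.03e-08). Among imprinted genes, Mest had 31.7 ± 5.75 CPM in NOD/ShiLtJ and 8.33 ± 1.87 in CAST/EiJ (adjusted p = 3.57e-11). Fgf13 was lowest in PWK/PhJ in both clusters, at 51.6 ± 13.7 CPM in Drd1+ neurons (highest NZO/HlLtJ, 124 ± 33.5; adjusted p = 4.94e-06) and 103 ± 41.3 in astrocytes.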
